A study of Arabidopsis thaliana with 10 samples.

Results

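The tau-class glutathione transferases of Arabidopsis thaliana other than GSTU20 were followed in root RNA on ATH1 arrays, short-oligonucleotide arrays that measure each gene with 1 or more probe sets. The members were the probe sets whose only annotated gene has a symbol of the form GSTU plus a number, with GSTU20 left out. This gave 10 genes, each with 1 of the 22810 probe sets, out of 12935 genes that a probe set with a value names alone. They were GSTU15, GSTU16, GSTU18, GSTU21, GSTU22, GSTU23, GSTU25, GSTU26, GSTU27 and GSTU28. The RefSeq gene table lists 27 GSTU genes besides GSTU20, and the others were not analysed here. GSTU22, GSTU25 and GSTU27 were singled out as genes known to respond to low sulfate, with earlier results of these data in view. Their changes with sulfate are therefore a description and no independent support, also where a test of the whole table is printed beside them.

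Roots were taken after 10 days from Col-0 plants (Col), from lines 1 and 4 of an sdi1sdi2 double knockout (KO) and from lines 6 and 12 that overexpress SDI1 (OX). Col and KO were grown on 1500 µM sulfate (+S) or 15 µM sulfate (-S), and OX on +S alone, which gave 5 groups of 2 arrays. Every plant germinated on its own sulfate level, on washed agar with sucrose, and magnesium was made equal with its chloride. Each KO or OX group holds 1 array from each of its lines. The promoter of the overexpressed gene and the places of the knockout insertions are not given in the sources used here. Whether separate cultures lie behind the 2 Col arrays of each group is not stated, so p-values may measure a spread that is partly technical. SDI1 and SDI2 are known to be induced by a lack of sulfur, and their proteins are known to lower the synthesis of glucosinolates, the sulfur-rich defence compounds of the cabbage family.

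Glutathione transferases join the tripeptide glutathione to reactive or foreign molecules, which are then moved into the vacuole or broken down. Glutathione carries a cysteine and is the main soluble pool of reduced thiol in a root, so these enzymes spend sulfur when they act. The tau class is found in plants, has many members that lie in tandem arrays of near copies, and is known for genes induced by herbicides, safeners, oxidised lipids and other stress. GSTU20 belongs to the same class by sequence but is known as an enzyme of aliphatic glucosinolate synthesis.

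Values are on a log2 scale whose zero point is unknown. Each probe set was therefore compared with itself across groups and not with another probe set. The summed levels of tissue markers are the exception, and in them the probe sets with the highest readings weigh most. Both arrays of a group are given, and each change is a difference of 2 group means on the log2 scale, with its SE. The limma p-values were adjusted by the Benjamini-Hochberg method across the 22197 probe sets tested. A probe set is called where its adjusted p is under 0.05. Background was set on each array at the 95th percentile of 22 Bacillus control probe sets and lay between -0.58 and 0.37. The spread was pooled over the 5 groups, so line differences within KO and OX also enter the tests between Col groups, and the number of arrays limits the precision.

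Arrays within a group correlated at 0.9904 to 0.9959 over all probe sets, and no 2 arrays of different groups correlated at less than 0.9717. SDI2 read 1.83 and 1.57 on the Col +S arrays and 5.65 and 5.47 on the Col -S arrays. In KO it read -0.35 and 0.31 in line 1 at +S and -S and -1.16 and -1.52 in line 4, and both line 4 arrays lay under background. In OX it read 1.52 and 1.86. SDI1 itself has no listed probe set, which left the overexpression unchecked. Of the root markers 3 of 14 were measured and of the leaf or shoot markers 3 of 11. A list gene counts as measured, here and below, where a tested probe set names it alone. The other list genes may lie among probe sets for which the annotation gives no gene or several. Each measured marker lay above background on all arrays except the leaf marker PSAE1 on 1 of the 2 Col -S arrays. In bulk RNA, fewer cells of a type and less RNA per cell cannot be told apart.

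Of the 10 members, 6 lay above background on all 10 arrays, namely GSTU22, GSTU23, GSTU25, GSTU26, GSTU27 and GSTU28. The same 6, or 60% of the members, were those above background on both arrays of at least 1 group, as were 66.1% of all probe sets tested. The other 4 lay under background on every array. GSTU15 read from -2.11 to -1.73, GSTU16 from -1.92 to -1.57, GSTU18 from -1.11 to -0.77 and GSTU21 from -0.98 to -0.42. No fold change is given for these 4, and a change under the background could not have been seen.

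Some of the members lie side by side in the RefSeq gene order of assembly TAIR10.1. GSTU23, GSTU22, GSTU21, GSTU20 and GSTU19 follow each other on chromosome 1 with 0 protein-coding genes between neighbours. GSTU24, GSTU25 and GSTU26 form another such row on chromosome 1, while GSTU27 lies on chromosome 3 and GSTU28 lies apart from the others on chromosome 1. Within the first row, the probe set of GSTU22 was above background and changed with sulfate, that of GSTU23 was above background without a call, and that of GSTU21 was under background. Neighbours in such rows have similar sequences, so a probe set may also bind RNA of a neighbour, which was not tested.

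**Figure D1:**
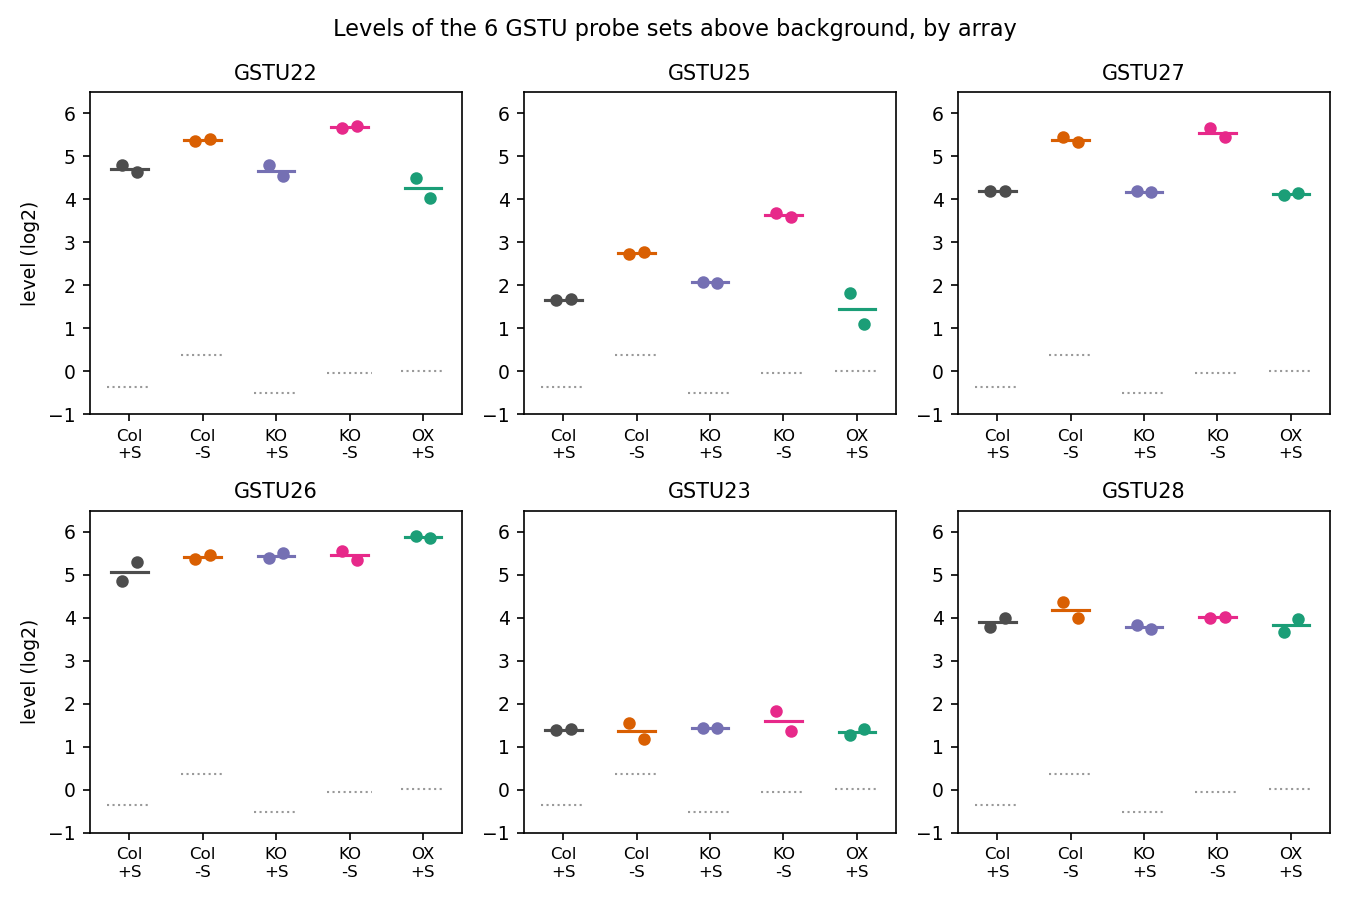
Level (log2) of the 6 measured GSTU probe sets in each group. Points are the 2 arrays of a group, short lines their mean and dotted grey lines the higher of the 2 background levels. In the panels of GSTU22, GSTU25 and GSTU27 the -S arrays of Col and KO lie above every +S array.

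The first question was how the members stood at low sulfate in the wild type. GSTU27 read 4.20 and 4.20 on the Col +S arrays and 5.44 and 5.33 on the Col -S arrays. Its rise of 1.18 ± 0.10, or 2.27-fold, was far larger than the gap between arrays of either group (limma adjusted p = 0.000195). It was called in each of the 10 fits that left out 1 array and in each of the other 9 alternative fits.

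GSTU25, which is known to conjugate the explosive trinitrotoluene with glutathione, read 1.65 and 1.69 on the Col +S arrays and 2.72 and 2.79 on the Col -S arrays. It rose by 1.08 ± 0.20, or 2.12-fold (limma adjusted p = 0.0101). GSTU22 read 4.80 and 4.63 at +S and 5.36 and 5.41 at -S, a rise of 0.67 ± 0.16, or 1.59-fold (limma adjusted p = 0.0323). For both genes, as for GSTU27, the Col -S arrays lay above both Col +S arrays, which was so for 25.4% of all probe sets.

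In all, 3 of the 10 members were called higher in Col at -S and 0 lower. Of all probe sets tested, 9.44% were called, 4.44% higher and 5% lower, and since the 3 were named as low sulfate responders nothing is read from this count. The members' median change was 0.16, against 0.02 for all probe sets. That median includes the 3 named responders and the members under background, so nothing is read from it either. The count of 3 became 1 when any of Col -S 2, Col +S 1 or Col +S 2 was left out. In that order of arrays the call of GSTU25 was lost at adjusted p = 0.0566, 0.0741 and 0.0577, and that of GSTU22 at 0.134, 0.101 and 0.168, by limma. The call of GSTU22 was also lost without Col -S 1 (limma adjusted p = 0.0735), with array weights (0.0584), and with blocks for mutant line and Col label number (0.0822).

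The other 3 measured members did not pass the test in Col. GSTU26, a gene known to be induced by chloroacetanilide herbicides, read 4.86 and 5.29 at +S and 5.37 and 5.47 at -S, a difference of 0.35 ± 0.15 (limma adjusted p = 0.191). GSTU28 stood 0.29 ± 0.15 higher and GSTU23 at -0.03 ± 0.17 at -S, with arrays that overlapped between the sulfate levels. The 95% interval of the GSTU23 change ran from -0.42 to 0.35, so that a change of the size seen for GSTU22 (0.67) lay outside it.

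The second question was whether the response was also found in the double knockout. GSTU27 read 4.19 and 4.17 on the KO +S arrays of lines 1 and 4 and 5.66 and 5.45 on the KO -S arrays. It rose by 1.38 ± 0.10, or 2.6-fold (limma adjusted p = 8.08e-05). GSTU25 read 2.08 and 2.06 at +S and 3.68 and 3.58 at -S in lines 1 and 4, a rise of 1.56 ± 0.20, or 2.95-fold (limma adjusted p = 0.00192). Both lines thus showed the difference, and the lines lay closer to each other than the sulfate levels did. In KO the -S arrays lay above the +S arrays for 25% of all probe sets.

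GSTU22 read 4.81 and 4.54 at +S and 5.66 and 5.71 at -S in lines 1 and 4. It rose by 1.01 ± 0.16, or 2.01-fold (limma adjusted p = 0.00625), a call that was lost without KO +S line 4 (limma adjusted p = 0.0514). GSTU26 did not move detectably in KO, at 0.01 ± 0.15, with a 95% interval from -0.32 to 0.34. GSTU23 and GSTU28 stood at 0.17 ± 0.17 and 0.24 ± 0.15. Again 3 of 10 members were called higher and 0 lower, where 6.42% of all probe sets were called, 2.92% higher and 3.5% lower, and again nothing is read from the count.

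Over both genotypes, the 4 -S arrays of GSTU27 read from 5.33 to 5.66 and the 6 +S arrays, OX included, from 4.099 to 4.20. The 4 -S arrays of GSTU25 read from 2.72 to 3.68 and its +S arrays from 1.09 to 2.08. For GSTU22 the ranges were 5.36 to 5.71 and 4.03 to 4.81. In these 3 genes, which were named as low sulfate responders, the sulfate level separated all arrays, whichever the genotype. The share of all probe sets for which this was so was not counted, and nothing is read from it. Within a genotype, the smaller step between the lowest -S and highest +S array of each gene was found in Col. That step exceeded the gene's own largest gap between arrays of a group. The step was 0.56 against a gap of 0.46 for GSTU22, 1.03 against 0.74 for GSTU25 and 1.13 against 0.20 for GSTU27. Over all arrays, the lowest -S and highest +S array of GSTU25 (2.72 and 2.08) lay closer together than its gap of 0.74.

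Markers of the leaf or shoot moved with sulfate as well. All 3 measured markers were called lower in Col at -S, and 1 of 3 in KO. Their summed level in linear units ran from 17.6 to 19.6 in Col +S, 10.6 to 11.3 in Col -S, 14.8 to 15.0 in KO +S, 9.52 to 9.66 in KO -S and 14.4 to 16.5 in OX, and PSAE1 was under background on 1 of the 2 Col -S arrays. Of the 3 measured root markers, the root hair expansins EXPA7 and EXPA18 were called higher in Col at -S and none in KO. PYK10, the third, stood at -0.02 ± 0.15 in Col and -0.34 ± 0.15 in KO. In KO EXPA7 and EXPA18 stood at 0.19 ± 0.14 and 0.41 ± 0.15. PYK10 had a mean of 8.94 in Col +S, and EXPA7 and EXPA18 had 3.05 and 3.34, so a linear sum mostly follows PYK10. The summed level of the root markers ran from 451 to 574 in Col +S, 498 to 533 in Col -S, 515 to 525 in KO +S, 383 to 458 in KO -S and 429 to 503 in OX. The part of these differences in the members' changes was not tested.

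**Figure D2:**
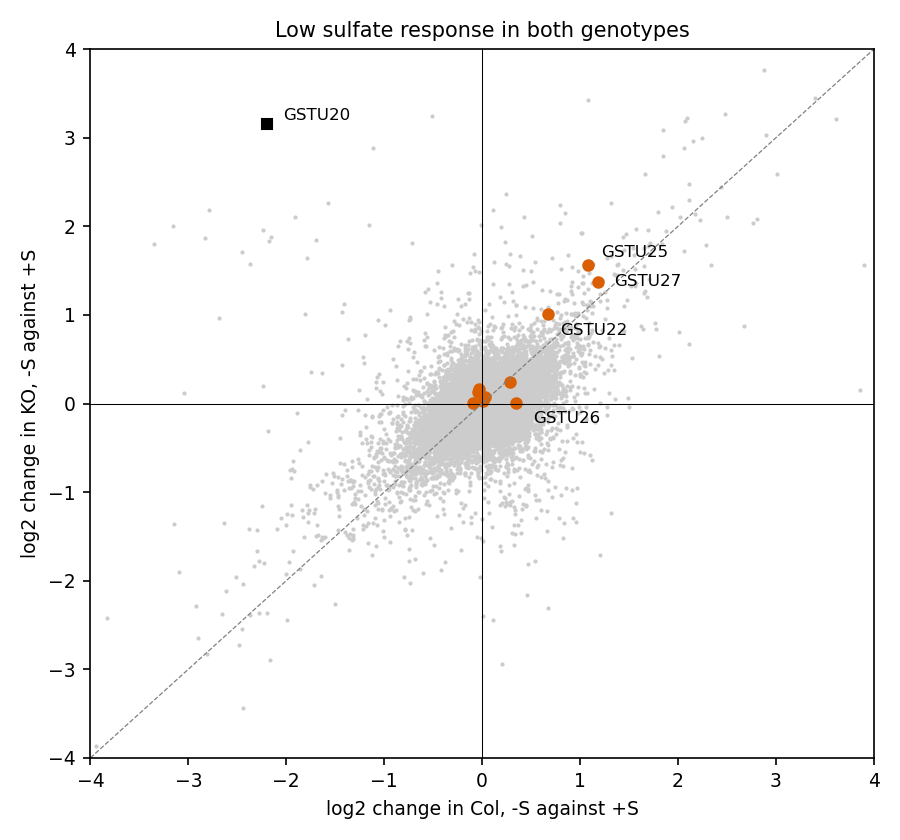
Log2 change at -S against +S in Col (horizontal) and KO (vertical), for all tested probe sets in grey, the 10 GSTU members in orange and GSTU20 as a black square, with a dashed line of equal change. GSTU22, GSTU25 and GSTU27 lie above 0 on both axes, and GSTU20 lies at -2.2 and 3.15, below 0 in Col and above 0 in KO. Another 25 probe sets lie outside the plotted range of 4 log2 units.

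The third question was whether the response to sulfate differed between the genotypes, which the interaction term tests directly. By limma 0 of the 10 members passed, and 0 at an unadjusted p under 0.05, where 0.748% of all probe sets were called and 9.85% had an unadjusted p under 0.05. The rise in KO exceeded that in Col by 0.47 ± 0.28 for GSTU25 (95% interval -0.16 to 1.11), by 0.34 ± 0.23 for GSTU22 (-0.18 to 0.85) and by 0.19 ± 0.14 for GSTU27 (-0.13 to 0.52). For GSTU26 the term stood at -0.34 ± 0.21 (-0.81 to 0.13). These intervals include 0 and also sizable differences, so equal responses are not shown.

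GSTU20, the probe set left out, had a different course on the same arrays. It read 3.05 and 2.97 in Col +S, 1.01 and 0.61 in Col -S, 3.04 and 3.36 in KO +S, and 6.32 and 6.38 in KO -S. It therefore fell in Col and rose in KO, with an interaction of 5.35 ± 0.21 (limma adjusted p = 6.22e-06). In OX it read -0.20 and -0.19, and the first of these arrays lay under its background. Of the genes in its row, the next one, GSTU21, lay under background on every array, and GSTU22 beyond it rose at -S in both genotypes, as given above.

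The fourth question was whether the double knockout differed from Col at the same sulfate level. At +S, 0 of 10 members were called by limma, and 2 had an unadjusted p under 0.05, GSTU18, which was under background, and GSTU26. Of all probe sets 0.0225% were called and 5.56% had an unadjusted p under 0.05. GSTU27 stood at -0.02 ± 0.10 (95% interval -0.26 to 0.21), GSTU22 at -0.04 ± 0.16 (-0.41 to 0.32), GSTU25 at 0.40 ± 0.20 (-0.05 to 0.85) and GSTU26 at 0.37 ± 0.15 (0.04 to 0.70), with adjusted p-values of 0.841 or more. Both KO arrays lay above both Col arrays for 3 members, GSTU23, GSTU25 and GSTU26, and for 17.3% of all probe sets. They lay below for 3 members, GSTU27 and the under-background GSTU18 and GSTU21, and for 24.5% of all probe sets.

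At -S, 0 of 10 members were again called by limma and 1 had an unadjusted p under 0.05, where 2.85% of all probe sets were called, 1.73% higher and 1.12% lower, and 18.5% had an unadjusted p under 0.05. That member was GSTU25, which read 3.68 and 3.58 in KO against 2.72 and 2.79 in Col, a difference of 0.88 ± 0.20, or 1.83-fold (limma adjusted p = 0.0565). The groups did not overlap, as was also so in the higher direction for 19.2% of all probe sets. The call was made in 5 of 19 alternative fits and the adjusted p ran from 0.00291 to 0.332 over them. It was 0.00291 without either OX line, and these are the 2 arrays whose GSTU25 values lay furthest apart within a group. GSTU22 stood at 0.30 ± 0.16 (limma adjusted p = 0.363) and GSTU27 at 0.17 ± 0.10 (0.41), and the other measured members had adjusted p-values of 0.5 or more.

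**Figure D3:**
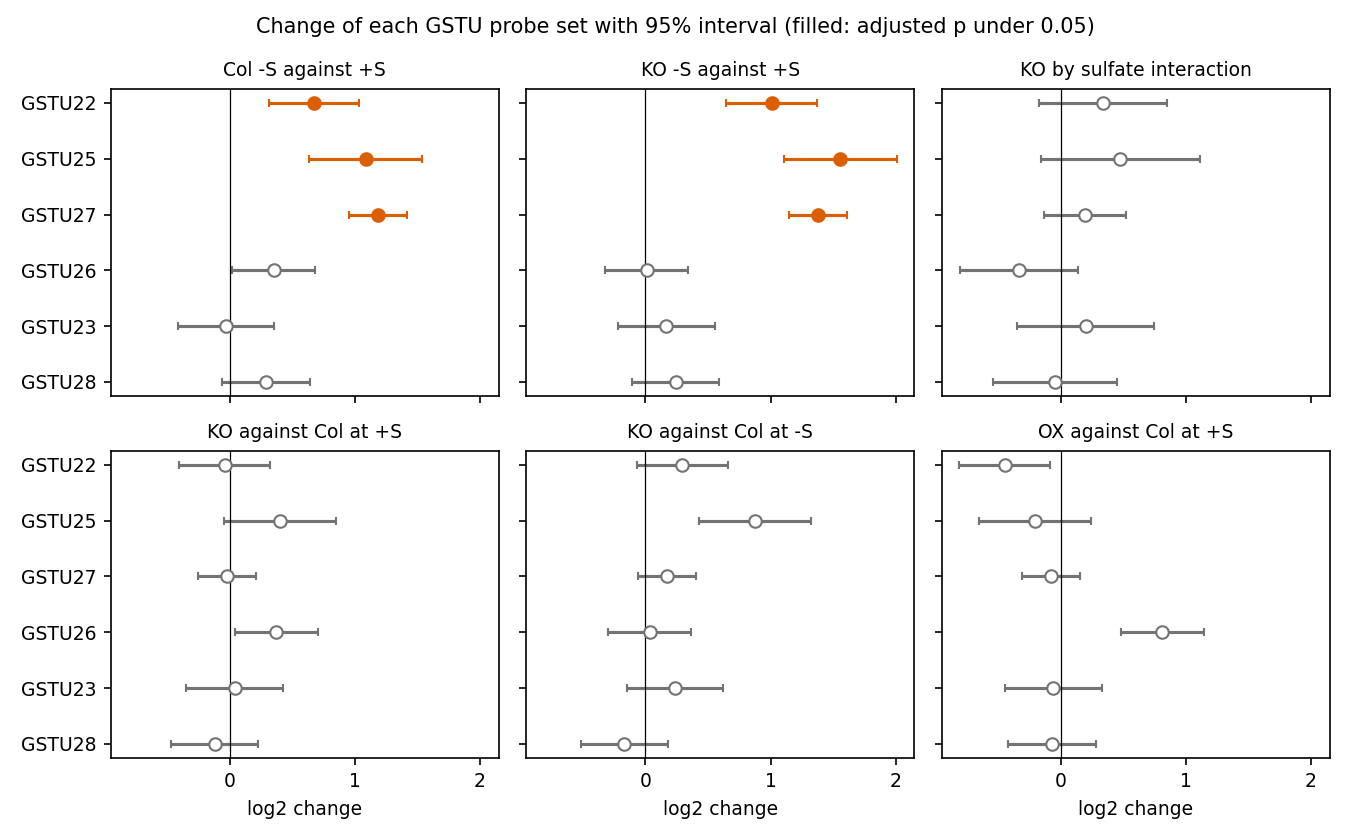
Log2 change of the 6 measured GSTU probe sets in each of 6 comparisons (horizontal), with bars for the 95% interval of the fit. Filled orange points passed an adjusted p of 0.05: GSTU22, GSTU25 and GSTU27 in the 2 panels of low against full sulfate, and no probe set in the other 4 panels.

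The fifth question was how the members stood in plants that overexpress SDI1 at full sulfate. The 2 OX lines of GSTU26 read 5.91 and 5.86, above both Col arrays (4.86 and 5.29) and above all 8 arrays of the other groups. Both OX arrays lay above both Col +S arrays for 21.7% of all probe sets. The difference from Col was 0.81 ± 0.15, or 1.75-fold, and lay just outside the threshold (limma adjusted p = 0.0566, unadjusted p = 0.000399). It was called in 5 of 19 alternative fits, and without Col +S 2 it was 1.03 (limma adjusted p = 0.0353).

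By limma 0 of 10 members were called in OX and 3 had an unadjusted p under 0.05, GSTU18, GSTU22 and GSTU26. Of all probe sets 0.649% were called and 9.01% had an unadjusted p under 0.05. GSTU22 read 4.50 in line 6 and 4.03 in line 12, both under the Col +S arrays, as was so for 15.9% of all probe sets, a difference of -0.45 ± 0.16 (limma adjusted p = 0.402). GSTU25 read 1.83 in line 6 and 1.09 in line 12, on either side of the Col +S arrays (1.65 and 1.69), so that the lines did not share a direction. GSTU27 read 4.099 and 4.14 and differed from Col by -0.08 ± 0.10, with a 95% interval from -0.31 to 0.15. The rise of 1.18 that GSTU27 showed at -S in Col lies outside that interval. The comparisons of OX and of KO at +S share the Col +S arrays.

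The order of the groups was alike in part for the genes that responded. GSTU22, GSTU25 and GSTU27 were each highest in KO -S, then in Col -S, and lowest in OX, and the arrays of KO -S and Col -S did not overlap for any of them. Such a separation, with KO higher, was found for 19.2% of all probe sets, and none of these 3 differences was called. Between Col -S and OX the order differed. The mean of KO +S stood above that of Col +S for GSTU25 (2.07 and 1.67). Col +S stood above KO +S for GSTU22 (4.72 and 4.67) and GSTU27 (4.20 and 4.18), and none of these differences was called. Col +S and KO +S overlapped for GSTU22, and Col +S and OX overlapped for GSTU25. GSTU26 was highest in OX and lowest in Col +S, and its 3 groups between these overlapped. The order of GSTU23 and GSTU28 had mostly overlapping neighbours, with group means that ranged over 0.26 and 0.41.

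Among the members, GSTU22 correlated with GSTU25 at r = 0.95 and with GSTU27 at 0.92, and GSTU25 with GSTU27 at 0.91, each over the same 10 arrays. GSTU26 correlated with GSTU22 at -0.32, with its neighbour GSTU25 at -0.10 and with GSTU27 at -0.08. These values describe arrays that fall into 2 sulfate levels and share their normalization, and they mostly restate the step between those levels.

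The same measure was used to name the probe sets most like each of the 3, out of 443 with a single listed gene, a level above background and a range of group means of at least 1. For GSTU27 these were the isoflavone reductase-like gene AT1G75290 (r = 0.996), the sugar transporter family member AT3G05400 (0.995), AT3G27150 (0.994), AT5G40670 (0.994) and SFP1, a gene of the same sugar transporter family (0.993). For GSTU25 they were AT2G41380 (0.972), AT1G53640 (0.970), AT2G41730 (0.968), HL, a phosphatase gene of the HAL2 family (0.966), and APS3, an ATP sulfurylase of sulfate assimilation (0.965). For GSTU22 they were AT2G41730 (0.961), HL (0.959), the small heat shock protein gene AT2G29500 (0.958), AT5G05600, a jasmonate oxidase gene (0.957), and the glucosyltransferase gene UGT73B4 (0.956). AT2G41730 and HL stood in the lists of both GSTU22 and GSTU25, and no gene of the GSTU27 list stood in the others.

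Of other glutathione transferase classes 3 of 25 list genes were measured, GSTF4, GSTF13 and GSTL3, and 0 were called by limma in any of the 6 comparisons. Their changes at -S in Col were 0.28 ± 0.11, 0.05 ± 0.13 and 0.01 ± 0.11. Of glutathione synthesis, reduction, turnover and transport 3 of 19 were measured. The cytosolic glutathione reductase GR1, which returns oxidised glutathione to its reduced form, rose by 0.38 ± 0.09 in Col (limma adjusted p = 0.0303) and by 0.52 ± 0.09 in KO (0.00958), and in Col the call was lost with a block for mutant line (0.0531), with that for Col label number too (0.0817) and with only the arrays compared (0.152). The call in Col was also lost without either Col +S array (0.138 and 0.141), either Col -S array (0.0903 and 0.0766) or either KO +S array (0.0677). The call in KO was lost without KO -S line 1 (0.062), KO +S line 1 (0.0829) or KO +S line 4 (0.074). GR1 stood at -0.42 ± 0.09 in OX (limma adjusted p = 0.088).

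GR2, the reductase of plastids and mitochondria, rose by 0.63 ± 0.13 in KO (limma adjusted p = 0.0263). It was higher in KO than in Col at -S by 0.84 ± 0.13 (limma adjusted p = 0.0125), a call that was lost with only the arrays compared (0.0657). With a block for mutant line this contrast sets line 1 against Col, and with that for Col label number too against Col number 1. Those contrasts are not the same difference and were not called (limma adjusted p = 0.0585 and 0.196). In Col GR2 stood at -0.40 ± 0.13 at -S against +S (0.106). The difference between these responses was 1.04 ± 0.19 (limma adjusted p = 0.0563). The call of GR2 in KO was lost without any 1 of the KO arrays (-S lines 1 and 4, 0.064 and 0.173, +S lines 1 and 4, 0.176 and 0.104) and with both blocks (0.0532), and that against Col at -S without Col -S 2 (0.0865), KO -S line 1 (0.0502) or KO -S line 4 (0.0902). GGCT2;3, a glutathione-degrading enzyme gene, was not called in any comparison.

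Of the detoxification genes driven by TGA factors and SCL14, a response in which tau-class genes are known to take part, 3 of 16 were measured. UGT73B4 rose by 1.28 ± 0.17 in KO at -S (limma adjusted p = 0.00241) and stood at 0.62 ± 0.17 in Col (0.0564). The difference between these responses was 0.66 ± 0.24 and was not called (limma adjusted p = 0.398). UGT73B4 read close to background, at 0.04 and 0.12 on the Col +S arrays, and lay under background on both OX arrays. It was higher in KO than in Col at -S by 0.88 ± 0.17 (0.0303), and that call was lost with array weights (0.0959) and with only the arrays compared (0.0654). The call was also lost without either Col -S array, either KO -S array or either Col +S array. With a block for mutant line, and with that for Col label number too, the contrast sets line 1 against Col or Col number 1. Those contrasts are not the same difference and were not called (limma adjusted p = 0.0582 and 0.139). UGT73B5 and AER, the other 2, were not called by limma in any comparison.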

How the data were processed

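Root RNA was measured on 10 ATH1 arrays. The deposited values are log10 expression values per probe set made by the authors. The sources used here do not state their background correction, summarization or normalization, and the zero point is unknown. Base 10 was settled from spiked controls: their mean span from 1.5 to 100 pM was 2.13 units, against 1.82 expected for log10, 6.06 for log2 and 4.2 for natural log. The slope ran from 1.13 to 1.2, so folds of bright probe sets may be overstated. Values were multiplied by the log2 of 10, with no pseudocount and no further normalization. Of 22810 probe sets, 554 had no value and 64 were controls (5 both), leaving 22197. The annotation gives 13513 a single gene, 503 several and the rest none, and 13436 of the 13513 matched the RefSeq table of TAIR10.1 by Entrez ID. No coordinates are given, as the array annotation states no build.

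A mean for each of 5 groups was fitted by lmFit and eBayes of limma 3.58.1 under R 4.3.3, with 5 residual and 3.81 prior degrees of freedom and 6 comparisons, after the script had been tested on simulated data. Every GSTU probe set was to be named, list genes by counts with values for those called, and 5 correlated probe sets for each of GSTU22, GSTU25 and GSTU27. The members and lists were chosen with earlier results of these data known. Array groups came from the titles. The plant line pairs the KO arrays across sulfate levels, with a correlation of 0.07 between deviations from group means. Col arrays share only a number (-0.14). Alternatives were quantile normalization, median centring, 2 filters on dim probe sets, an intensity trend with robust variances, array weights, only the arrays compared, 2 replicate blocks and leaving out each array. The blocks set KO at line 1, and the block that adds Col label number also sets Col at number 1. In those fits KO against Col compares these and not the group means, and likewise OX against Col with the added block.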

Additional observations from a re-analysis of the deposited data

Results flagged for a closer look

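The difference between KO and Col in the low sulfate response of GSTU20, the tau-class gene that was left out of the members, was 5.35 ± 0.21 on the log2 scale and passed the interaction test (limma adjusted p = 6.22e-06). All Col -S arrays lay under the Col +S arrays and all KO -S arrays above the KO +S arrays. The term ran from 5.15 to 5.55 over all 19 alternative fits and was called in each. None of the 10 members passed this test.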

How the results depend on the processing

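The rises of GSTU27 in Col and KO and of GSTU25 in KO kept their direction and their call in all 19 alternative fits. Leaving out 1 array moved the number of members called between 1 and 3 in Col, 2 and 3 in KO, 0 and 1 for KO against Col at -S, and 0 and 1 for OX. In KO against Col at -S, 1 member (GSTU25) was called among probe sets above background in a group, without the dimmest probe sets, and with an intensity trend and robust variances. In OX, 1 member (GSTU26) was called in those 3 settings and after quantile normalization. The cause of these shifts was not tested. The filters leave fewer probe sets to adjust over, and their fits also estimate the spread anew. With the replicate block for mutant line, the count stayed at 3 in Col and 3 in KO, and with that for Col label number as well it was 2 in Col, where GSTU22 was lost. The block changed no other member's call.

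Directions changed only for differences that were called in neither fit. With the replicate blocks, KO against Col set line 1 against Col, or against Col number 1, and was not the difference of group means. At +S these contrasts were 0.012 for GSTU22 (mutant line), 0.031 and 0.0038 for GSTU27 (mutant line, and both blocks) and -0.029 for GSTU20 (both blocks). Median centring moved GSTU26 in KO to -0.00062. Fits without 1 array ran, at -S against +S, from -0.22 to 0.15 for GSTU23 in Col, -0.071 to 0.40 for GSTU23 in KO and -0.088 to 0.11 for GSTU26 in KO. They ran from -0.18 to 0.094 for GSTU22 between KO and Col with full sulfate, and with low sulfate from -0.0012 to 0.47 for GSTU23, -0.065 to 0.13 for GSTU26 and -0.36 to 0.025 for GSTU28. In OX they ran from -0.13 to 0.010 for GSTU23, -0.58 to 0.16 for GSTU25, -0.22 to 0.075 for GSTU28 and -0.24 to 0.072 for GR2, and for the interaction from -0.039 to 0.43 for GSTU23 and -0.24 to 0.15 for GSTU28.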
